A study of Mus musculus with 18 samples.

Results

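The genes described here are the replication-dependent histone genes of the mouse, the clustered genes that encode the linker histone H1 and the core histones H2A, H2B, H3 and H4. They were taken as the protein-coding rows of the count table whose symbol begins with Hist1h, Hist2h, Hist3h or Hist4h, which gave 67 of 54838 rows, or 67 of 21998 protein-coding rows. The 67 comprise 6 H1, 18 H2A, 18 H2B, 12 H3 and 13 H4 genes. The Hist1 cluster on chromosome 13 holds 54 of them, the Hist2 cluster on chromosome 3 holds 10, and the Hist3 and Hist4 loci on chromosomes 11 and 6 hold 2 and 1.

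RNA was sequenced from C57BL/6 mouse cells in 18 libraries, as total RNA and as the polysomal fraction of a sucrose gradient, the mRNA that carries several ribosomes. Myeloid-derived suppressor cells (MDSC) are immature myeloid cells that restrain T cells. Marrow cells were cultured for 5 days and the MDSC were then sorted as CD11b-high Ly6G-negative Ly6C-high cells, called LY6C, or as CD11b-high Ly6G-high Ly6C-intermediate cells, called LY6G. The sorted cells were plated again and collected the next day with cycloheximide, which holds ribosomes on mRNA. Unsorted bone marrow (BM) was flushed from the femurs of 3 mice and its red cells were lysed with ACK buffer. Each of the 6 groups had 3 libraries, with replicate numbers 2, 3 and 6 in sorted cells and 1, 2 and 3 in marrow, and per-library values below follow that order. No allele, treatment or age is given for any group, and the cultured cells had left the marrow days before collection while BM had not been cultured. Libraries were stranded and random primed after depletion of ribosomal RNA and were not selected for poly(A) tails.

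Replication-dependent histone genes are transcribed during S phase, when new DNA has to be packed into nucleosomes. Their mRNAs carry no poly(A) tail and end shortly after a conserved stem-loop. The stem-loop is bound by SLBP, which serves the processing, export and translation of the mRNA, and the mRNAs are degraded when DNA synthesis stops. Linker histones bind the DNA between nucleosomes, and core histones form the nucleosome itself.

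The stem-loop was searched after the stop codon in GENCODE M21 transcripts as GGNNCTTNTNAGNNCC on the gene's strand. It was found in 46 of the 67 genes and in 40 of 21799 other protein-coding genes, or 0.183%. Of the 51 histone genes whose model runs at least 40 bases past the stop codon, 46 held it, and 13 models end at the stop codon itself. The sites of 8 genes, at least 1 from each class, are printed because this element sets these mRNAs apart from those that end in a poly(A) tail. They lie on build GRCm38 at chr13:23555782-23555807 (+), chr13:23751567-23751592 (+), chr13:23747198-23747223 (+), chr13:23745042-23745067 (−), chr13:23581945-23581970 (+), chr13:21812124-21812147 (+), chr13:21831793-21831818 (−) and chr3:96262934-96262959 (−), in the order of the lines. They are written 5′ to 3′ with the 16-base stem-loop in capitals, up to 5 flanking bases in lower case, and T for U.
Hist1h1d: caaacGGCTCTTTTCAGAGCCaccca
Hist1h2ab: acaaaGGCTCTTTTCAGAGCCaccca
Hist1h2bb: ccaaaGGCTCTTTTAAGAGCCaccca
Hist1h3c: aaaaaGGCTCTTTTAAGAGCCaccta
Hist1h4d: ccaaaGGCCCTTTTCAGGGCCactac
Hist1h4m: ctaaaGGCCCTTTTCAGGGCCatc
Hist1h4n: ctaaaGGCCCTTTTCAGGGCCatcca
Hist2h4: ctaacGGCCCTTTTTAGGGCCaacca
The form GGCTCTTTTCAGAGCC occurred in 26 of the 46 genes and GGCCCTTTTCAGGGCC in 7. The stem-loops of Hist1h4d, Hist1h4m and Hist1h4n were identical, and those of Hist1h4m and Hist1h4n also shared the flanking bases that both models include.

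Promoters were matched in the RefSeq table of build GRCm38.p6 for 62 of the 67 genes, as 250 bases before and 50 after the start. On either strand, CCAAT occurred in 53 of 62 histone promoters against 37.8% of the promoters of other genes, and in each matched H1, H2A, H2B and H3 promoter but in 3 of 12 for H4. The TATA box TATAAA was present in 35 of 62, against 14.1% of the others. GGTCCG, the core of an H4 element, occurred in 11 of 12 H4 promoters against 8.36%, and AAACACA, an H1 element, in 5 of 6 H1 promoters against 7.12%. The octamer ATTTGCAT was found in 7 of 18 H2A and 6 of 16 H2B promoters, in 0 of the H1, H3 and H4 promoters, and in 1.71% of others. The 250 bases before the start are printed for 1 gene of each of 4 classes, because genes with different promoter elements moved together across libraries in the results below. They lie at chr13:23554782-23555031 (+), chr3:96269450-96269699 (+), chr13:23745522-23745771 (−) and chr13:23581318-23581567 (+), with matches to the 5 letter strings on either strand in capitals. RefSeq's start can differ from that of the GENCODE model, as in Hist1h1d, whose GENCODE model begins further upstream. These matches are descriptions of the letters and not evidence of binding.
Hist1h1d: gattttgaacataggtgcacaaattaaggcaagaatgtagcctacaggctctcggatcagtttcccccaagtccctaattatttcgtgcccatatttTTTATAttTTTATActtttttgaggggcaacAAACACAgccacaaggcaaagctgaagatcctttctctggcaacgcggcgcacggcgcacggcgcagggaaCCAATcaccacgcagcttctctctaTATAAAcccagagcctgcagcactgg
Hist2h2bb: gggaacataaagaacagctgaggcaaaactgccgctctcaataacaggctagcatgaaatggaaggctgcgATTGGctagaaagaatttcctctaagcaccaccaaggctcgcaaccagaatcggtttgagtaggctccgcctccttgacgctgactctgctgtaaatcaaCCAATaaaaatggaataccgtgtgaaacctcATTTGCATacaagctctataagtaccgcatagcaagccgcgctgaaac
Hist1h3c: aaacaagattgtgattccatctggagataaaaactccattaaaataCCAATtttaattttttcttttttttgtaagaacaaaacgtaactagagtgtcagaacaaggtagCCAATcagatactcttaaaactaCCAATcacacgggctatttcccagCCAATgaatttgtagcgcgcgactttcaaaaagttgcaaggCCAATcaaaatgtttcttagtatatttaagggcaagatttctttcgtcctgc
Hist1h4d: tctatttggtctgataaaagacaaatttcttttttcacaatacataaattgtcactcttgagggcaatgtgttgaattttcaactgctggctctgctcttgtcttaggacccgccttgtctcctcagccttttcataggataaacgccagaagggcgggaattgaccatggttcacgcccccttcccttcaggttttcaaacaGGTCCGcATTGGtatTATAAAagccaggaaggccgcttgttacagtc
In Hist1h4d the H4 element, the CCAAT string (on the other strand) and the TATA box began 47, 40 and 32 bases before the start and did not overlap.

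The libraries held 8559897 to 21138649 counts in sorted cells and 12107504 to 26225431 in marrow. Protein-coding genes took 37.3% to 94.6% of the counts in sorted cells, 1.83% to 3.72% in polysomal BM and 0.249% to 0.323% in total BM. In LY6C the share was 93.5%, 37.3% and 54.5% in total and 93.7%, 66.7% and 72.4% in polysomal RNA, lower in numbers 3 and 6. Their total libraries held 8684335 and 8559897 counts, against 21138649 in number 2. The part of this in the histone levels was not tested. Levels are given in CPM, counts per 1000000 of a library size corrected by TMM factors. A level of 1 CPM therefore stood for 18 to 110.3 counts in sorted cells, 1.73 to 3.51 in polysomal BM and 0.472 to 0.611 in total BM. Summed erythroid markers (16 genes with a row) reached 589 to 1403 CPM in marrow and 0.154 to 7.63 in sorted cells, B lineage markers 70.2 to 129 against 2.49 to 10.0, and stromal and endothelial markers 2031 to 6896 against 8.27 to 53.1. Monocyte and macrophage markers stood at 138 to 260.4 CPM in marrow and 819 to 3132 in sorted cells. Ly6g, the sort antigen of LY6G, was low in all groups, at 1.62, 1.73 and 8.73 CPM in LY6G total RNA and 1.84, 4.16 and 4.16 in LY6C total RNA. In sorted cells the libraries numbered 6 had the lowest histone level of each group, and in LY6C those numbered 3 the highest by far, so results that rest on either are given with and without them. Whether other cell types take part in a histone level was not tested, and in bulk RNA fewer cells of a type and less RNA per cell cannot be told apart.

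All 67 genes are accounted for. Of these, 59 passed the filter on low counts (6 H1, 14 H2A, 15 H2B, 11 H3 and 13 H4 genes), which asks for enough counts in as many libraries as 1 group holds, in whichever groups these lie. Hist2h2aa1, Hist1h2aa, Hist1h2ba and Hist2h3c1 had 0 counts in all 18 libraries. Hist2h2aa1 and Hist2h3c1 share 89.4% and 100% of their 50-base stretches with the gene Gm20634, so 0 counts cannot tell whether they were expressed. Hist1h2aa and Hist1h2ba are known for the histones of male germ cells. Hist1h2ao, Hist1h2ap, Hist1h2bq and Hist1h2br had 40, 6, 2 and 3 counts in all. Each of those 4 shares at least 93.1% of its 50-base stretches with a single other gene, and the sources used here do not say where reads that match several genes were counted.

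Per kilobase of coding sequence, as a mean over the 18 libraries, the H4 gene Hist1h4d led with 251 CPM per kilobase, followed by Hist1h4f with 227, Hist1h1d with 188, Hist1h1c with 172 and Hist2h4 with 123. This order pools the 6 groups and differed between them. Hist1h4d led in each polysomal group, whereas in total RNA Hist1h4f led in LY6C with 230.3 against 205.6 for Hist1h4d, Hist1h1c in LY6G with 115.9 against 112.2, and Hist1h1d in BM with 330.2 against 101.5 CPM per kilobase. In the other classes the leading levels on this scale were 89.2 for Hist1h2ak (H2A), 81.5 for Hist1h3c (H3) and 33.0 for Hist1h2be (H2B). The annotated models of Hist1h1d and Hist1h4d run over 7425 and 1138 exon bases, so per kilobase of exon Hist1h4f led with 182 CPM per kilobase, before Hist1h2ak with 89.2 and Hist1h1b with 89.1. At the lower end of the coding scale stood Hist1h1t, the testis linker histone, with 0.181 CPM per kilobase and Hist3h2a with 0.554.

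Summed over all 67 genes, histone levels differed more between replicate numbers than between the sorted populations. In LY6C total RNA the sum was 817, 1774 and 235 CPM, and in LY6G total RNA 678, 749.7 and 184 CPM. In polysomal RNA it was 984, 2656 and 862 CPM for LY6C and 887, 867 and 307 CPM for LY6G. The libraries numbered 6 were the lowest of their group each time, and those numbered 3 were the highest in LY6C. Marrow showed no such spread, with 870.1, 935 and 1004 CPM in total and 1940, 1664 and 1630.4 CPM in polysomal RNA. As mean ± SD (n = 3), the total and polysomal sums were 942 ± 777 and 1500.5 ± 1002 CPM in LY6C, 537 ± 308 and 687 ± 329 CPM in LY6G, and 936 ± 67 and 1745 ± 169.9 CPM in BM. Read instead as a share of protein-coding counts, histone genes held 0.456%, 0.988% and 0.121% in LY6C total and 0.399%, 0.433% and 0.106% in LY6G total RNA, so the libraries numbered 6 were lowest on that scale too. Other genes differed between these numbers as well. In LY6C total RNA the neutrophil granule proteases Elane and Prtn3 stood at 9.12, 84.4 and 1.87 CPM and at 8.99, 89.9 and 2.58 CPM, and the myeloperoxidase gene Mpo at 11.2, 95.4 and 2.41. Myb, a transcription factor of progenitors, stood at 2.38, 15.4 and 2.24 CPM there, so all 4 were highest in number 3, as the histone sum was. Not all primary granule and progenitor markers shared this order in LY6C total RNA. The granule gene Ctsc stood at 239, 166 and 244 CPM, lowest in number 3. Of the progenitor markers, Spi1 stood at 55.5, 40.6 and 30.9 CPM, Gata2 at 1.55, 0.942 and 2.41 and Kit at 7.93, 8.26 and 2.62. The 8 primary granule markers summed to 281, 514 and 255 CPM in LY6C total and 265, 398 and 232 in LY6G total RNA, against 116 to 291 in marrow. The 9 stem and progenitor markers summed to 69.0, 67 and 39.9 CPM in LY6C total RNA. The 14 monocyte and macrophage markers went the other way in number 3, with 2055, 819 and 1623 CPM in LY6C total RNA, and had 1751, 1937 and 1532 in LY6G total RNA. The part of these cell types in the histone sums was not tested. The BM sums rest on 411 to 571 histone counts per total library and 2878 to 6801 per polysomal library, against 5662 to 104596 in sorted cells.

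**Figure D1:**
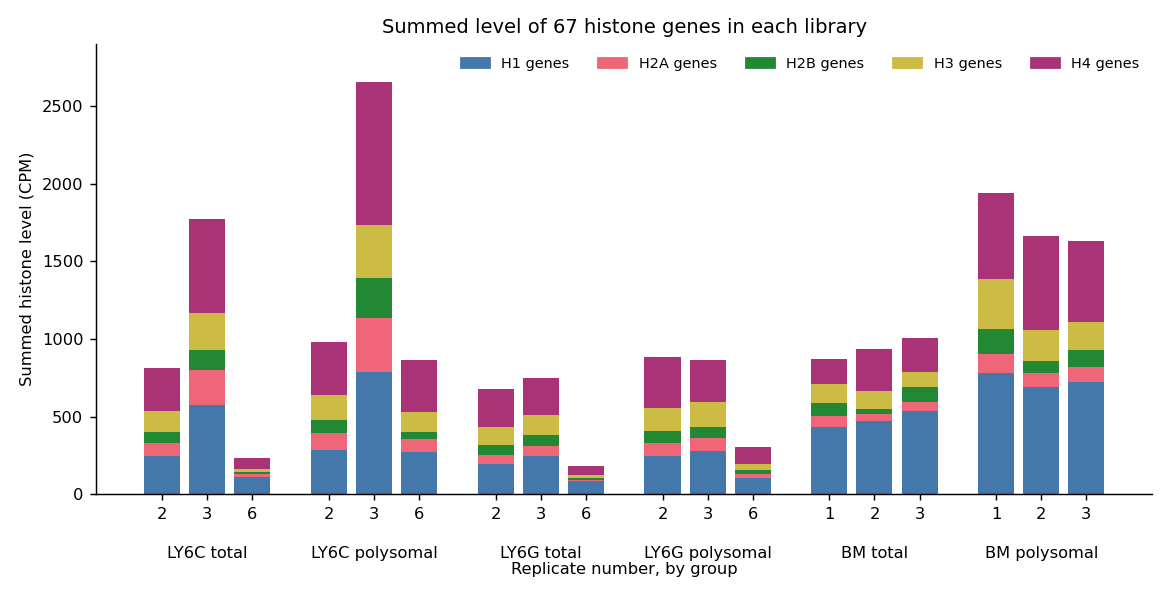
Summed CPM of the 67 histone genes (vertical axis, linear from 0) in each of the 18 libraries, ordered by group and replicate number, with the 5 classes stacked. Bars are single libraries, so no error is drawn. The LY6C libraries numbered 3 reach 1774 and 2656 CPM, the libraries numbered 6 lie at 184 to 862 CPM, and the marrow libraries lie close together within each fraction.

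The lower level in the libraries numbered 6 was seen in all 5 classes. In all 4 sorted-cell groups at the same time, 47 of the 59 tested histone genes were lowest in number 6, against 10.3% of the 14181 genes tested. By group, number 6 was lowest for 56 histone genes in LY6C total RNA (35.1% of all genes), 49 in LY6C polysomal RNA (38.5%), 58 in LY6G total RNA (37.9%) and 58 in LY6G polysomal RNA (42.6%). The log2 difference of number 6 from the mean of numbers 2 and 3, taken on log2(CPM + 0.5), had histone medians of −2.36 (total) and −0.97 (polysomal) in LY6C and of −1.78 and −1.41 in LY6G. The medians of all genes were −0.02, −0.02, 0.03 and −0.01. The library numbered 3 was the highest of its group for 53 histone genes in total (33.7% of all genes) and 56 in polysomal RNA (32.4%) of LY6C, and for 42 (34.1%) and 26 (32.9%) in LY6G. Averaged over the 4 groups, the class medians of the number 6 difference were −1.32 for H1, −1.42 for H2A, −1.73 for H2B, −2.03 for H3 and −1.55 for H4.

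Hist1h2ak (ENSMUSG00000063021, chr13:21753435-21753827, −), an H2A gene, stood furthest below in number 6, at −2.59 as a mean over the 4 groups on that log2 scale. Its level was 26.4, 94.4 and 5.11 CPM in the total and 35.8, 144 and 21.5 CPM in the polysomal RNA of LY6C, and its LY6G polysomal level was 27.8, 28.0 and 5.46 CPM. Hist1h3c, an H3 gene, followed at −2.47, with 32.1, 52.6 and 4.07 CPM in LY6C total and 24.0, 27.0 and 1.96 in LY6G total RNA. Hist1h1b, which encodes the linker histone H1.5, was at −2.38, with 28.4, 97.8 and 7.11 CPM in LY6C total and 18.2, 32.1 and 2.24 in LY6G total RNA. Hist1h1c, which encodes H1.2, was at −0.95, with 104, 156 and 47.8 CPM in LY6C total against 87.3, 86.0 and 48.9 in LY6G total RNA. The share of H1 genes among the histone counts was 30.3%, 32.3% and 46.6% in LY6C total and 29.2%, 32.7% and 46.5% in LY6G total RNA, highest in number 6. Hist1h4i stood apart among the H4 genes at −0.58, with 7.14, 8.70 and 4.78 CPM in LY6C total and 6.18, 6.48 and 4.17 in LY6G total RNA. The median of this difference was −1.73 over 19 genes whose model ends within 60 bases of the stem-loop, −1.51 over 23 whose model runs further and −1.72 over 17 whose model holds no stem-loop. These groupings, and the order of the replicate numbers, were chosen after the values were seen and are given with no test.

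In LY6C polysomal RNA leading genes of the 4 core classes were highest in number 3. The H2A gene Hist1h2ab stood at 16.3, 56.6 and 20.2 CPM, the H2B gene Hist1h2bn at 10.5, 29.9 and 4.51, the H3 gene Hist1h3i at 17.9, 44.7 and 12.4 and the H4 gene Hist1h4k at 28.6, 56.4 and 19.6. In BM polysomal RNA Hist1h2ab stood at 14.8, 8.67 and 11.6 CPM, Hist1h3i at 84.7, 41.6 and 41.5 and Hist1h4k at 28.5, 42.8 and 18.6. Hist1h2ab therefore lay above all 3 BM libraries in each LY6C library, and the ranges of Hist1h3i and Hist1h4k overlapped. Its BM polysomal levels rest on 52, 15 and 33 counts. Only 42.0%, 12.4% and 28.5% of the 50-base stretches of Hist1h2ab, Hist1h3i and Hist1h4k occur in no other gene, so their counts are uncertain. Hist4h4, the H4 gene of the Hist4 locus, stood at 13.2, 52.5 and 14.1 CPM in LY6C, 16.3, 15.7 and 4.06 in LY6G and 34.5, 52.0 and 40.1 in BM polysomal RNA, overlapping between LY6C and BM and not between LY6G and BM. None of these 5 was called by edgeR in any of the 12 comparisons.

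**Figure D2:**
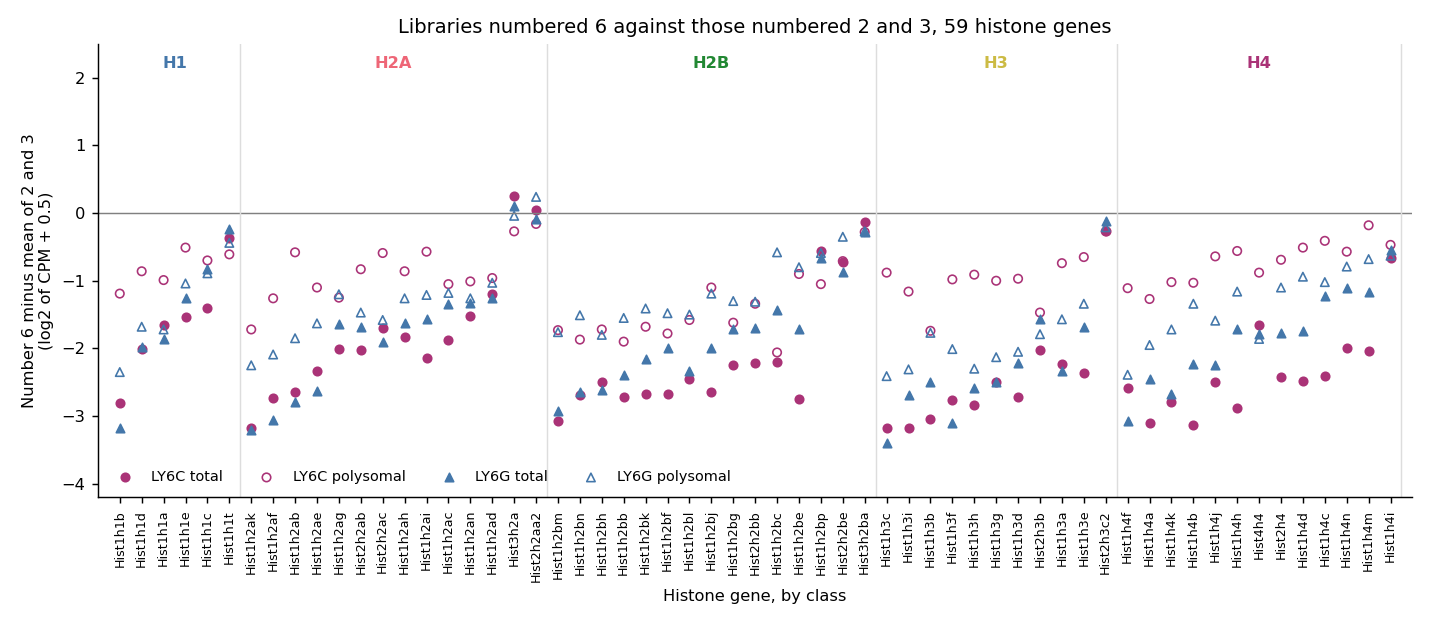
Log2 difference of the library numbered 6 from the mean of those numbered 2 and 3 (vertical axis, log2 of CPM + 0.5) for each of the 59 tested histone genes, by class. Circles are LY6C and triangles LY6G, filled for total and open for polysomal RNA. Points lie below 0 for nearly all genes, the exceptions being genes of very low level such as Hist3h2a and Hist2h2aa2.

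Genes of DNA replication were also lowest in most of these libraries. The summed level of 35 S phase genes was 361, 832 and 214 CPM in the total and 448, 1034 and 454 in the polysomal RNA of LY6C, and 272, 395 and 103 against 339, 481 and 153 CPM in LY6G. Number 6 was lowest in 3 of these 4 groups, and in LY6C polysomal RNA it was close to number 2. Mitosis genes gave 261, 625 and 123 CPM in LY6C total and 210.3, 359 and 52.4 in LY6G total RNA. Rrm2, a subunit of the ribonucleotide reductase that makes DNA precursors, had 18.7, 55.4 and 9.31 CPM in LY6C total and 13.2, 23.8 and 2.66 in LY6G total RNA. In LY6C total RNA the histone sum of 235 CPM in number 6 stood beside 817 and 1774 in the others, and the S phase sum of 214 CPM beside 361 and 832. The part of cycling cells in the histone levels was not tested.

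Histone variants outside the clusters did not all share this order. H2afx, which encodes H2A.X and alone among the 11 listed variant genes held the motif, stood at 46.4, 116 and 7.86 CPM in LY6C and 36.4, 39.2 and 3.65 in LY6G total RNA, and its polysomal levels, 58.1, 177 and 42.5 CPM and 47.8, 47.8 and 9.33 CPM, were lowest in number 6 as well. H3f3b, which encodes the replication-independent histone H3.3 from a polyadenylated mRNA, stood at 239, 240.3 and 245 CPM in LY6C total and 244, 206 and 241 in LY6G total RNA, with number 6 no lower than the others in LY6C and between them in LY6G. Its polysomal levels were 205, 220.1 and 395 CPM in LY6C, highest in number 6, and 234, 197 and 195 in LY6G, lowest in number 6. H2afz, which encodes H2A.Z, lacks the motif and stood at 43.6, 133 and 29.7 CPM in LY6C total and 49.6, 56.3 and 16.4 in LY6G total RNA, so its number 6 was lowest as well. In polysomal RNA H2afz stood at 54.8, 173 and 71.2 CPM in LY6C, with number 6 between the others, and at 62.8, 67.2 and 26.5 in LY6G. The variants were read as values, and no test set them apart.

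The comparison of polysomal with total RNA asks how far histone mRNAs are carried by polysomes. The histone sum was higher in polysomal RNA for each replicate number of each kind of cell. The ratio of polysomal to total CPM was 1.20, 1.5 and 3.66 in LY6C, 1.31, 1.16 and 1.67 in LY6G and 2.23, 1.78 and 1.62 in BM. In LY6C the ratio of number 6 was 2.47 for H1, 4.25 for H2A, 4.06 for H2B, 5.38 for H3 and 4.72 for H4 genes, while numbers 2 and 3 stayed between 1.15 and 1.93 in every class. In LY6G number 6 gave 2.54 for H2A, 2.49 for H2B, 1.94 for H3 and 1.89 for H4, and 1.26 for H1 genes. Ratios of the S phase list were 1.24, 1.24 and 2.12 in LY6C and 1.25, 1.22 and 1.48 in LY6G, so the libraries numbered 6 also had the largest ratio there. A high ratio in number 6 of LY6C was not limited to replication genes, with 4.51 for the sort antigens, 2.13 for primary granule markers, 1.93 for monocyte and macrophage markers, 1.88 for stromal and endothelial markers and 1.83 for the histone variants, each the highest of the 3 numbers.

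**Figure D3:**
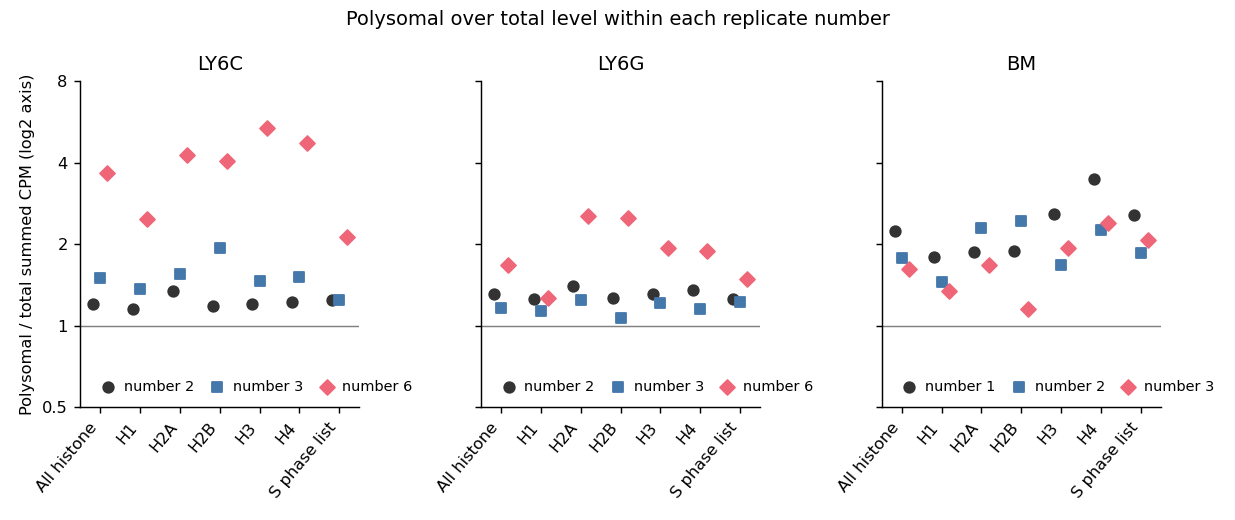
Ratio of polysomal to total summed CPM (vertical axis, log2 scale) within each replicate number, for all 67 histone genes, for each class and for the 35 listed S phase genes, in LY6C, LY6G and BM. Each point is 1 pair of libraries. Every point of the histone genes lies above 1, and number 6 of LY6C lies highest, at 3.66 for all histone genes.

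Gene by gene, polysomal exceeded total RNA in each replicate number for 51 of 59 histone genes in LY6C (25.2% of all genes) and 47 in LY6G (28.3%). Every polysomal library lay above every total library for 1 gene in LY6C (3.67% of all genes) and 0 in LY6G (8.52%). The median fitted log2 difference was 0.76 in LY6C, against 0.01 for all genes, and 0.39 in LY6G, against 0.00, with 55 and 53 of 59 positive. In Hist1h1d, which encodes the linker histone H1.3, the LY6C levels were 52.0, 178 and 23.5 CPM in total and 66.0, 238 and 69.1 in polysomal RNA. In Hist1h4f, an H4 gene, they were 43.5, 159 and 13.5 CPM in total and 59.2, 208 and 51.1 in polysomal RNA. Each number moved the same way, but the spread between numbers was larger than the shift. None of the 59 was called by edgeR at an adjusted p under 0.05 in either population, where 0 genes were called in all (0% of 14181). At an unadjusted p under 0.05 there were 0 histone genes in LY6C, where the lowest p was 0.107, and 1 in LY6G, Hist3h2a, which was lower in polysomes at an unadjusted p of 0.0426 from edgeR. DESeq2 and the fit with the replicate number as a block also called 0 histone genes. Without the libraries numbered 6 the medians were 0.52 in LY6C and 0.33 in LY6G. The LY6C median was 0.05 without the polysomal library numbered 3, 0.23 without the total library numbered 6 and 1.44 without the total library numbered 3, and the LY6G median was −0.07 without the total library numbered 6. These fits without 1 library held no block, so the same-numbered library of the other fraction stayed in. With the replicate number as a block, the medians were 1.02 in LY6C and 0.55 in LY6G.

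Hist1h4i, an H4 gene, was among the few histone genes that were lower in polysomal RNA. Its levels were 7.14, 8.70 and 4.78 CPM in LY6C total against 4.91, 7.82 and 4.34 in polysomal RNA, and 6.18, 6.48 and 4.17 in LY6G total against 6.03, 3.63 and 2.86 in polysomal RNA. It was lower in polysomes in each number of both populations, as 3 histone genes were in LY6C (17.9% of all genes) and 4 in LY6G (25.3%). The log2 differences were −0.27 ± 0.41 (SE) in LY6C and −0.43 ± 0.41 in LY6G, and neither was called by edgeR.

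In bone marrow, 25 of 59 histone genes had every polysomal library above every total library (19.5% of all genes), and 31 were higher in each number (27.8%). Of the 59, 11 had 0 counts in BM total RNA (32.9% of all genes). Such a gene meets both rules once each polysomal library holds a count of it. The median log2 difference was 1.10, against 0.55 over all genes, and it was 1.01 against 0.41 with genes of 0 counts set to their bound, a floor of 3 counts over the group, where 10 histone genes gave no bound and were left out. Under median-ratio factors it was 0.67 against 0.13 and in DESeq2 0.58 against 0.00, so the shift above other genes was 0.55 in the main scaling, 0.54 with median-ratio factors and 0.58 in DESeq2. With no filter on low counts it was 1.00, from 1.00 against 0.00. Hist1h4d (ENSMUSG00000061482, chr13:23581598-23582735, +), an H4 gene, was the 1 histone gene called, and it was higher, where 3.39% of all genes were called and 2.6% were called higher. Its levels were 29.6, 34.4 and 31.0 CPM in total and 176, 172 and 149 CPM in polysomal RNA, without overlap. The difference was 2.38 ± 0.64 (SE) on the log2 scale with an adjusted p of 0.0478 from edgeR, and pooled counts of 1340 against 50 gave a ratio of 5.20 with an exact 95% interval of 3.92 to 7.04, for counting error only. With median-ratio factors, with protein-coding library sizes and without any 1 of the 6 marrow libraries it was not called, and its adjusted p from edgeR and DESeq2 then ranged up to 0.128. The replicate block called 2 histone genes here, and 4 when set in sorted cells alone, and the shares of all genes under these settings are not given. H4 genes as a class had marrow ratios of 3.48, 2.25 and 2.39, and H1 genes 1.79, 1.45 and 1.34. Among H1 genes, Hist1h1d stood at 159, 201 and 300 CPM in total and 219, 235 and 263 in polysomal RNA, so that its fractions overlapped. The share of H1 among histone counts was 51.5% ± 1.91 (SD, n = 3) in BM total and 42.0% ± 2.01 in BM polysomal RNA, and that of H4 was 22.9% ± 5.34 and 32.3% ± 3.90. Whether the polysomal minus total difference itself differed between kinds of cells was tested as an interaction in edgeR, which called 0 histone genes in each of the 3 tests, against 0% of all genes for LY6G minus LY6C, 0.338% for LY6C minus BM and 0.416% for LY6G minus BM.

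Between the sorted populations, histone genes were lower in LY6G at most numbers. LY6G was below LY6C in each replicate number for 32 of 59 genes in total RNA (19.6% of all genes) and 38 in polysomal RNA (22.2%). The median log2 difference was −0.68 in total and −1.03 in polysomal RNA, against 0.00 and −0.03 over all genes, with 5 and 4 of 59 genes positive. In polysomal RNA, Hist1h4d stood at 63.0, 51.4 and 29.5 CPM in LY6G and 74.5, 213 and 88.3 in LY6C, without overlap, a log2 difference of −1.38 ± 0.58 (SE) with an adjusted p of 0.841 from edgeR. Hist2h4, an H4 gene of the Hist2 cluster, stood at 32.2, 28.2 and 13.8 CPM in LY6G and 36.2, 93.1 and 35.8 in LY6C. For 12 genes every LY6G polysomal library lay below every LY6C polysomal library, against 7.05% of all genes, and for 1 in total RNA, against 5.28%. No histone gene was called in either fraction by edgeR, 0 and 2 passing an unadjusted p under 0.05, and 0 by DESeq2, in comparisons where 0% of all genes were called. The histone sum was lower in LY6G than in LY6C in each replicate number of both fractions. The medians moved most with the LY6C libraries numbered 3. Without the LY6C total library numbered 3 the median was 0.05, and without the LY6C polysomal library numbered 3 it was −0.32. Without the LY6G total library numbered 6 it was −0.25 in total RNA, while leaving out all libraries numbered 6 gave −0.72 and −0.88. Fits without 1 library held no block, so the same-numbered library of the other population stayed in. With the replicate block the medians were −0.59 in total and −1.06 in polysomal RNA. The 35 S phase genes were negative without exception in both fractions, with medians of −0.80 and −0.90 and 0 called. Median-ratio factors moved the median of all genes to 0.15 in total and 0.13 in polysomal RNA and that of histone genes to −0.47 and −0.84.

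Against marrow, most of the histone genes called lower were called in LY6G polysomal RNA, among them 4 of the 6 linker histone genes. In LY6G minus BM polysomal RNA, 2 histone genes were higher and 10 lower by edgeR, in a comparison that called 37.5% of all genes, 22.1% higher and 15.3% lower. The 10 called lower, of 59 tested, lie near the share of all genes called lower. The 2 called higher lie below the share called higher. The median was −0.87, against 0.45 over all genes, and the H1 genes had a median of −1.78. Hist1h1b (ENSMUSG00000058773, chr13:21779883-21780625, −) stood at 24.8, 41.9 and 5.92 CPM in LY6G and 216, 150 and 155 in BM polysomal RNA. The 2 groups did not overlap, and the log2 difference was −2.84 ± 1.01 (SE, adjusted p = 0.0372, edgeR). Hist1h1d (ENSMUSG00000052565, chr13:23553262-23560686, +) stood at 51.6, 69.3 and 18.3 CPM against 219, 235 and 263, with a log2 difference of −2.36 ± 0.73 (adjusted p = 0.0177, edgeR). Hist1h1a stood at 14.4, 17.2 and 4.45 against 57.9, 49.1 and 47.1 CPM, a difference of −2.10 ± 0.68 (adjusted p = 0.0223), and Hist1h1e at 49.4, 51.2 and 24.2 against 126, 103 and 115 CPM, a difference of −1.46 ± 0.50 (adjusted p = 0.0277), both from edgeR. Hist1h1c, at 107, 97.7 and 55.0 against 163, 151 and 140 CPM, was not called (−0.81 ± 0.40, adjusted p = 0.117, edgeR). Hist1h1a and Hist1h1e encode H1.1 and H1.4. Without the LY6G library numbered 6 the 4 H1 differences were −2.36, −1.96, −1.68 and −1.17 in the order given, with adjusted p of 0.118, 0.0673, 0.0783 and 0.113 from edgeR. With all sorted libraries numbered 6 left out they were −2.49, −2.10, −1.82 and −1.31, and all 4 were called. Hist1h1a was also not called without BM library 1, and Hist1h1b and Hist1h1e without BM library 1 or 3 or LY6G library 2.

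The other genes that fell in this comparison were core histone genes. The H2B gene Hist2h2bb (ENSMUSG00000105827, chr3:96269752-96270132, +) stood at 4.07, 3.56 and 1.23 CPM in LY6G and 31.1, 15.0 and 25.3 in BM polysomal RNA, a log2 difference of −3.02 ± 0.84 (adjusted p = 0.00958, edgeR). It shares 53.6% of its 50-base stretches with the gene Gm42743, so its counts are uncertain. The H4 genes Hist1h4b, Hist1h4d, Hist2h4 and Hist1h4i fell by 2.05, 1.79, 1.58 and 1.26 on the log2 scale, with adjusted p between 0.0224 and 0.0458 from edgeR. Hist3h2ba, an H2B gene of the Hist3 cluster, was also called lower, on 35 counts in LY6G and 9 in BM. No H3 gene and no H2A gene was called. These calls thinned out when libraries were left out, to 3 without the LY6G library numbered 6, to 4 and 6 without the BM libraries numbered 1 and 3 and to 7 without the LY6G library numbered 3, whereas the replicate block, set within sorted cells and within marrow separately, gave 25 calls, 12 of them shared. No pairing of the marrow numbers was seen, at a depth that could hide it. The block was also set in sorted cells alone, which gave 29 calls, 3 higher and 26 lower. Leaving out all sorted libraries numbered 6 gave 17, 6 higher and 11 lower. The shares of all genes called under these other settings are not given here, so these counts stand without a background. Hist2h2bb, Hist1h4m and Hist1h4n were called under each of 12 other settings. These 12 do not include the block in sorted cells alone or leaving out all sorted libraries numbered 6. BM differed from LY6G in uncultured origin and in the marker levels given above, and these cannot be told apart from the population.

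In LY6C minus BM polysomal RNA, 3 histone genes were higher and 1 lower by edgeR, in a comparison that called 31.4% of all genes, 20.2% higher and 11.2% lower. The median was 0.27, against 0.52 over all genes, and it rested on single libraries, at −0.42 without the LY6C library numbered 3 and 0.70 without that numbered 6. The H1 genes named above were not called here. Hist1h1d stood at 66.0, 238 and 69.1 CPM in LY6C, overlapping the BM range (−0.94 ± 0.70, adjusted p = 0.327, edgeR), and Hist1h1b at 38.4, 151 and 33.1 CPM (−1.23 ± 0.95, adjusted p = 0.349, edgeR). Hist2h2bb was at 3.78, 10.2 and 2.17 CPM (−2.16 ± 0.82, adjusted p = 0.0541, edgeR). The gene called lower, Hist3h2a, rests on 16 counts in LY6C and 5 in BM and shares 31.5% of its stretches with Trim17. The number called was 2 without the BM library numbered 1 and 2 without that numbered 3, 18 with the replicate block, 13 higher and 5 lower, and 19 with the block in sorted cells alone, 11 higher and 8 lower. It was 13 without the sorted libraries numbered 6, 12 higher and 1 lower, and 11 in DESeq2. For these settings too, the shares of all genes called are not given.

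In total RNA the depth of BM limited the comparison. Of the 59 histone genes, 11 had 0 counts in BM total RNA and were not detectable there at this depth. LY6G minus BM called 2 histone genes lower and 0 higher, where 30.8% of all genes were called, 21.5% higher and 9.39% lower. LY6C minus BM called 1 lower and 0 higher, where 27.9% of all genes were called, 20.5% higher and 7.4% lower. Hist1h1d was lower in LY6G at 37.2, 57.8 and 11.4 CPM against 159, 201 and 300, a log2 difference of −2.63 ± 0.75 (adjusted p = 0.0129, edgeR). It was called under each of the same kinds of 12 other settings, without the block in sorted cells alone or leaving out all sorted libraries numbered 6. Hist3h2ba, called lower in both, had 4 counts in BM total RNA, all in library 3, without which its direction turned. Without that library LY6C minus BM called 0 and LY6G minus BM 1, and LY6C minus BM called 4 without the LY6C total library numbered 6 and 2 without either that numbered 3 or BM library 2. With genes of 0 counts at their bound, the medians were 0.31 for LY6C minus BM and −0.33 for LY6G minus BM, against 0.61 and 0.53 over all genes. In these 2 medians, 9 and 10 histone genes gave no bound and were left out. The fitted medians, 0.50 and −0.25, turned without 1 library, to −0.30 without the LY6C library numbered 3 and to 0.27 without the LY6G library numbered 6. The LY6C median lay 1.14 below that of all genes in edgeR (0.50 against 1.64) and 0.20 below it in DESeq2 (−0.02 against 0.18). With the replicate block, 5 and 7 histone genes were called in LY6C and LY6G minus BM, with the block in sorted cells alone 4 and 9, and without the sorted libraries numbered 6, 8 and 4. Shares of all genes called under these settings are not given here.

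**Figure D4:**
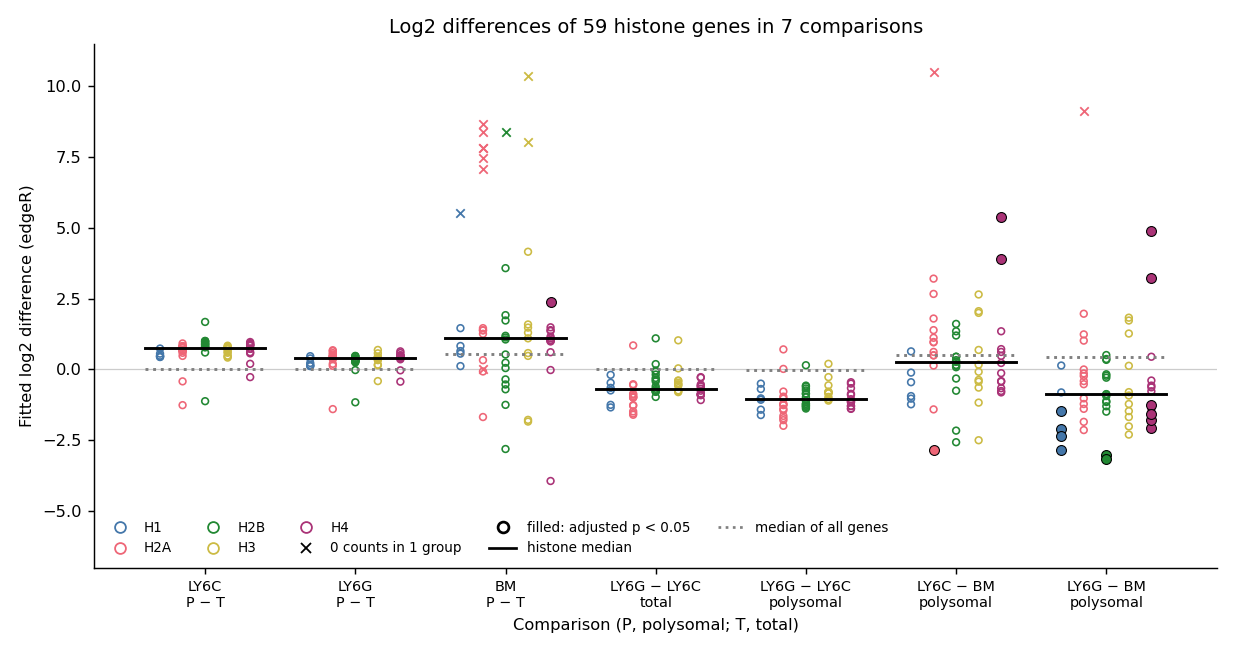
Fitted log2 differences (vertical axis, edgeR) of the 59 tested histone genes in 7 comparisons, coloured by class. Filled points passed an adjusted p under 0.05, and crosses are genes with 0 counts in 1 of the groups, whose fitted value depends on the prior count and is no bound. The cross at the top of LY6C minus BM, Hist1h2ah, was also called. Solid lines are histone medians, such as −0.87 for LY6G minus BM, and dotted lines are medians of all genes.

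The histone genes called higher than marrow were near-identical copies. Hist1h4m (ENSMUSG00000069306, chr13:21811746-21812147, +) stood at 7.97, 11.9 and 8.56 CPM in LY6C, 8.03, 5.84 and 4.09 in LY6G and 0, 0.578 and 1.41 in BM polysomal RNA. Hist1h4n (ENSMUSG00000069305, chr13:21831767-21832196, −) stood at 5.10, 7.06 and 3.88, 5.27, 3.72 and 2.35, and 0, 0 and 0.351 CPM. The log2 differences from BM were 3.91 ± 0.84 and 3.24 ± 0.85 for Hist1h4m and 5.40 ± 1.21 and 4.90 ± 1.24 for Hist1h4n, with adjusted p between 0.00138 and 0.00511 from edgeR. On the BM side these rest on 5 counts of Hist1h4m and 1 of Hist1h4n, and pooled counts gave LY6C over BM ratios of 14.5 (exact 95% interval 6.21 to 44.8) and 43.6 (7.80 to 1722). Hist1h2ah, an H2A gene, had 575 counts in LY6C and 0 in BM polysomal RNA, and was at least 9.33-fold higher with a floor of 3 counts over the group (adjusted p = 0.0301, edgeR). Only 10.2%, 14.4% and 9.3% of the 50-base stretches of these 3 transcripts occur in no other gene, and Hist1h4m shares 89.8% of its stretches with Hist1h4n. Their counts are uncertain, because the handling of reads that match several copies is not stated.

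Over all tested histone genes the difference from marrow followed this share of own sequence, in bins chosen after the values were seen. In LY6C minus BM polysomal RNA the median was 2.0 for the 13 genes with under 25% of their own stretches, 0.28 for the 14 with 25% to under 50%, 0.17 for the 15 with 50% to under 75% and −0.32 for the 17 with 75% or more. The same bins gave 1.24, −0.90, −1.02 and −1.22 in LY6G minus BM. Spearman's rho over the 59 genes was −0.37 and −0.38, and Pearson's r −0.41 and −0.44, across genes that share clusters, sequence and libraries and are no independent replicates. The polysomal minus total medians of these bins lay between 0.70 and 0.84 in LY6C and between 0.33 and 0.43 in LY6G. In BM they were 1.19, 1.44, 1.10 and 0.61, lowest where own sequence was highest. With the genes under 50% left out, the median was 0.10 for LY6C minus BM and −1.09 for LY6G minus BM, and the H1 genes called above hold between 68.0% and 100% of their own stretches. Mappability and read handling as a part of these differences were not tested.

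**Figure D5:**
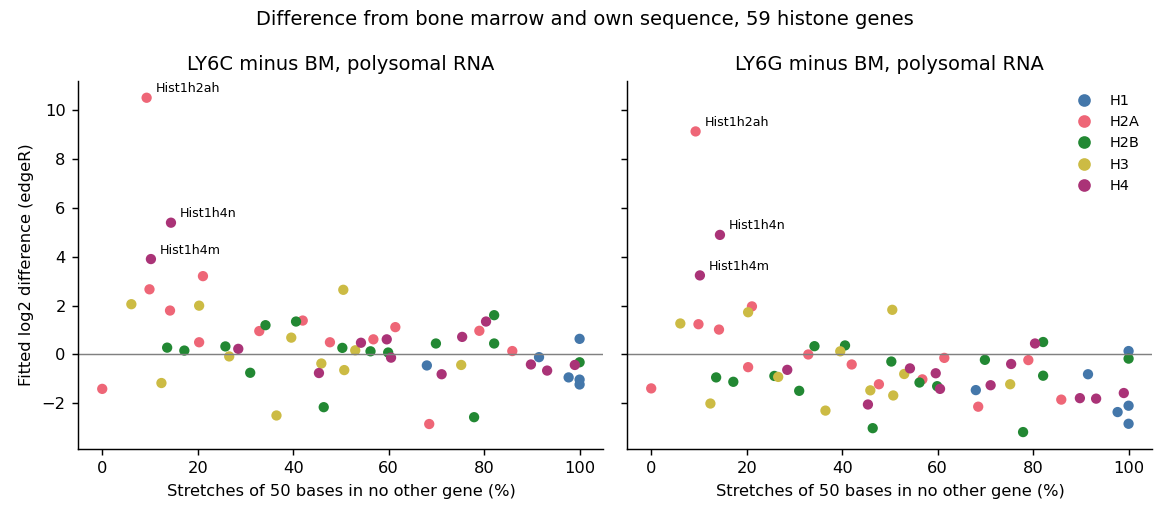
Fitted log2 difference from BM in polysomal RNA (vertical axis, edgeR) against the percentage of 50-base stretches of the transcript found in no other gene (horizontal axis), for the 59 tested histone genes, LY6C at left and LY6G at right, coloured by class. The 3 named points, Hist1h4m, Hist1h4n and Hist1h2ah, lie under 15% and highest, and Hist1h2ah is a fitted value against 0 counts.

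Genes of replication and of histone mRNA and protein handling were also compared with marrow. Of 35 S phase genes, edgeR called 18 lower and 0 higher in LY6G minus BM polysomal RNA and 7 lower and 0 higher in LY6C minus BM, with medians of −1.58 and −0.74, where 15.3% and 11.2% of all genes were called lower and 22.1% and 20.2% higher. Slbp, which encodes the stem-loop binding protein, stood at 12.8, 28.2 and 22.9 CPM in LY6C, 13.5, 13.8 and 7.65 in LY6G and 107, 54.3 and 60.1 in BM polysomal RNA. It was lower in LY6G (−2.67, adjusted p = 0.000689, edgeR) and in LY6C (−1.80, adjusted p = 0.0125, edgeR). Npat, the coactivator of histone gene transcription, stood at 1.71 to 5.06 CPM in sorted cells and 3.14, 2.89 and 1.41 in BM polysomal RNA, and had 0 counts in BM total RNA. Of 20 genes of histone mRNA synthesis, processing and decay, 2 were higher and 5 lower in LY6G minus BM polysomal RNA, which is not far from the shares of all genes, 22.1% and 15.3%. Of 18 histone chaperone genes, 1 was higher and 10 lower there, among them Supt16, a subunit of the FACT complex, at 29.3, 32.5 and 25.7 CPM against 163, 154 and 170.1 (adjusted p = 4e-06, edgeR). Within the sorted cells 0 genes of these 3 lists were called between LY6G and LY6C, in comparisons where 0% of all genes were called.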

How the data were processed

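The files hold raw read counts per gene, as the authors deposited them, for 18 libraries. Per the submitters' processing notes, FastQC, STAR 2.5.2a, DESeq and DESeq2 were used with build GRCm38. The counting program, annotation, strand setting and read length are not given in the sources used here, and neither is the handling of reads that match several genes. Of 54838 gene rows, 54809 were named through GENCODE M21 and 29 were not.

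Genes with at least 10 counts in enough libraries of a group's size (filterByExpr) were kept, which left 14181, and fitted across all 6 groups with edgeR 4.0.16 (R 4.3.3, TMM factors, robust quasi-likelihood fit, common dispersion 0.163). Each of 12 comparisons was adjusted over all 14181 genes by Benjamini and Hochberg's method and called at 0.05. Fitted log2 differences use the default prior count of the edgeR fit. A prior count of 2 was used only for the log2 levels behind the check of replicate numbers. Nothing says that libraries of a group came from separate mice or cultures, so p-values measure the spread between these libraries, which may be technical. Alternatives were median-ratio factors, protein-coding library sizes, no filter, DESeq2 1.42.0, a fit of the compared libraries alone, the replicate number as a block (within sorted cells and, separately, within marrow), and leaving out each library. Leaving out the sorted libraries numbered 6, setting the block in sorted cells alone, and keeping histone genes with at least 50% of their own 50-base stretches, were chosen after seeing the data. Intervals and floors (3 counts) cover counting error only.

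Histone genes were named where called in a comparison, where among the 2 highest of their class in CPM per kilobase of exon, and for testis and single-copy loci. From other lists, Slbp, Npat and the most abundant genes were named. Hist1h2bb, Hist1h2be, Hist1h2ao, Hist1h2ap, Hist1h2bq and Hist1h2br fall outside that rule. The members, lists and tests were chosen with earlier results of these data known. The numbers paired the sorted libraries, since same-numbered polysomal and total libraries deviated together (correlations of 0.56 to 0.74, and 0.27 to 0.59 between LY6G and LY6C, all above 0.1). In marrow the correlations were 0.0047 to 0.027. Total BM held 0.472 to 0.611 counts per CPM, and counting error at that depth can hide a pairing. The check therefore cannot say whether the marrow numbers were paired. On simulated counts the LY6G minus BM polysomal comparison (13752 genes) recovered 8.96% of genes changed by 1 on the log2 scale, 48.5% by 2 and 89.4% by 3. For polysomal minus total it recovered 1.49% by 1 and 54.5% by 2 in LY6C (13881 genes), 0% and 53% in LY6G (13894 genes) and 0% and 45.5% in BM (13954 genes). Only a small share of genes was changed in each simulation, drawn from those with enough counts. All others were equal between the compared groups. The real LY6G minus BM polysomal comparison called 37.5% of all genes, so its recovery can differ, as can that of genes with few counts.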

Additional observations from a re-analysis of the deposited data

Results flagged for a closer look

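Hist1h4i was higher in polysomal than in total RNA in marrow and lower in sorted cells. Its median log2 difference of polysomal from total RNA over the replicate numbers was −0.15 in LY6C, −0.48 in LY6G and 0.93 in BM, with each number of LY6C and LY6G below 0 and each number of BM above 0. The difference between LY6G and BM in this shift was −1.82 ± 0.78 (SE) with an adjusted p of 0.291 in edgeR, and that between LY6C and BM was −1.66 ± 0.78 with an adjusted p of 0.351, so neither passed. BM total library 3 had 0 counts of it.

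Histone pseudogene rows, which no comparison uses, also held counts over the 18 libraries. Hist1h2al, an H2A row annotated as a processed pseudogene on chromosome 13, held 25962 counts, with 48.0 ± 50.0 CPM in total and 78.8 ± 56.2 CPM in polysomal RNA of LY6C, 16.4 ± 9.76 and 22.4 ± 10.3 CPM in LY6G, and 40.7 ± 40.7 and 34.6 ± 22.7 CPM in BM (SD, n = 3). The Hist3 row Hist3h2bb-ps held 34 counts and Hist1h2aj 11.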

How the results depend on the processing

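Among the 67 histone genes, called counts followed the filter, the spread estimate and single libraries, and BM medians followed the scaling. The causes were not tested, and the shares of all genes called under these other settings are not given. Polysomal minus total in BM called 0 with median-ratio factors or protein-coding library sizes, 2 with no filter and 2 with the replicate block, and its median was 0.67 with median-ratio factors, 0.86 with protein-coding library sizes, 0.58 with DESeq2 and 0.65 with the compared libraries alone. With no filter, LY6G minus LY6C in polysomal RNA called 3, LY6C minus BM called 9 in total and 17 in polysomal RNA, and LY6G minus BM 8 and 22. DESeq2 called 2 and 11 in LY6C minus BM. The compared libraries alone called 12 in LY6C minus BM polysomal RNA and 1 and 19 in LY6G minus BM. The replicate block called 5 and 18 in LY6C minus BM and 7 and 25 in LY6G minus BM, with 1, 3, 2 and 12 shared with the main calls, and changed no other count of calls. Set in sorted cells alone, it called 4 in BM polysomal minus total, 4 and 19 in LY6C minus BM and 9 and 29 in LY6G minus BM. Without the sorted libraries numbered 6, LY6C minus BM called 8 and 13 and LY6G minus BM 4 in total RNA. Summed histone CPM on protein-coding library sizes was 4936 and 7633 in LY6C, 3144 and 3931 in LY6G and 6408 and 10177 in BM (total, polysomal), and BM gave 1104 and 1533 with median-ratio factors. Hist2h2bb in LY6G minus LY6C total RNA was 0.01 with median-ratio factors and 0.01 with DESeq2. Leaving out each library gave 0 calls each time for BM polysomal minus total, with medians from 0.82 to 1.19. For LY6C minus BM it gave 0 to 4 calls in total and 2 to 4 in polysomal RNA, and for LY6G minus BM 1 to 2 and 3 to 12. Fits without 1 library held no block, so in sorted cells the other libraries of the same number stayed in. Of the named genes, those that turned direction without 1 library ranged as follows in log2. For LY6C polysomal minus total the range was −0.31 to 1.98 for Hist1h1b, −0.54 to 2.0 for Hist1h2ak, −0.14 to 1.59 for Hist1h2bn and −0.38 to 1.82 for Hist1h4f, each lowest without the polysomal library 3. For LY6G polysomal minus total it was −0.18 to 1.25 for Hist1h1b, −0.07 to 0.90 for Hist1h2ak, −0.14 to 0.84 for Hist1h2bn, −0.10 to 0.86 for Hist1h3i, −0.14 to 0.83 for Hist1h4f and −0.14 to 0.67 for Hist2h2bb. In BM it was −0.18 to 2.65 for Hist1h2bn. For LY6G minus LY6C total RNA it was −1.22 to 0.05 for Hist1h2bn, −0.96 to 0.39 for Hist1h3i, −1.54 to 0.24 for Hist1h4f, −1.07 to 0.04 for Hist1h4k and −0.65 to 0.51 for Hist2h2bb, each highest without the LY6C library 3. Hist3h2ba ranged from −9.80 to 4.51 in LY6C minus BM and −5.23 to 5.60 in LY6G minus BM total RNA, positive without BM library 3. Over all settings, 356 of the comparison values and 889 of the gene values stayed within their range or call, 56 comparison values moved, and 25 gene values turned direction, 58 lost and 4 gained a call. BM total RNA, at 0.472 to 0.611 counts per CPM, limits every comparison it enters.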
